A study of Mus musculus with 2 samples.

Results

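The Cxcl14 and Mme mesenchymal progenitors of aged mouse hindlimb muscle were 1402 of the 14984 cells kept in 2 single-cell RNA-Seq libraries. They were chosen by UMI counts alone, a UMI being a tag that marks 1 captured RNA molecule. A cell first passed a mesenchymal gate, with at least 1 UMI of Pdgfra, at least 5 of Dcn and at most 1 over the endothelial genes Pecam1 and Cdh5, the leukocyte gene Ptprc and the tenocyte gene Tnmd. Within the gate, the UMIs of Cxcl14, Mme, Hsd11b1 and Ccl11 had to sum to at least 3 and to more than the sum of Pi16, Sema3c, Cd248 and Dpp4 and the sum of Gdf10, Fst, Igfbp3 and Penk. Gate cells in which one of the other sums reached 3 and was the largest are called the Pi16 class and the Gdf10 class here. The 3 classes are therefore a partition made from 12 genes, and the levels of these genes below describe the choice and are not findings.

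Both libraries came from 24-month-old female C57 Bl/6J mice that received 3 intramuscular injections, and the cells of 2 mice were pooled in each. For the ATRA+agonist library the muscle was given ATRA (all-trans retinoic acid) along with CD3254, which activates RXR-alpha, and BMS961, which activates RAR-gamma. For the DMSO vehicle library it was given the solvent. The comparison asks how vitamin A receptor signaling alters the cells of aged muscle. With 1 library per group no difference between the conditions could be tested, and a difference between libraries cannot be told apart from a difference between the pooled mice or the preparations. All intervals below are 95% intervals that cover counting error only.

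Fibro-adipogenic progenitors are Pdgfra-expressing stromal cells of skeletal muscle that make extracellular matrix, send trophic and chemotactic signals to muscle stem cells and leukocytes, and can become adipocytes or myofibroblasts. Cxcl14 is a chemokine of resident stroma, and Ccl11 (eotaxin) attracts eosinophils. Mme (neprilysin) is a membrane peptidase that cleaves signaling peptides. Hsd11b1 regenerates active glucocorticoid from its inactive keto form inside the cell, with cofactor supplied by H6pd. Retinoic acid acts through RAR and RXR, nuclear receptors that bind DNA as heterodimers, and is broken down by the Cyp26 enzymes.

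The members numbered 628 of 7467 kept cells in the ATRA+agonist library, or 8.41% (7.79 to 9.06), and 774 of 7517 in the vehicle library, or 10.3% (9.62 to 11.01). The ratio of these shares was 0.817 (0.739 to 0.903). Of the cells in the mesenchymal gate, 57.2% (54.2 to 60.1) were members with ATRA+agonist and 58.7% (56.0 to 61.4) with vehicle, a ratio of 0.974 (0.910 to 1.04), so the interval of the share within the gate included no difference. The Pi16 class numbered 285 and 223 cells and the Gdf10 class 141 and 230. Their ratios within the gate were 1.53 (1.31 to 1.79) and 0.736 (0.606 to 0.893). Over all gate cells the rule genes also differed in level between the libraries. The log2 ratios of Pi16, Sema3c, Cd248 and Dpp4 ran from 0.40 to 0.72. Igfbp3 was at -1.27, Penk at -0.65, Gdf10 at -0.46 and Fst at 0.38. Whether the class ratios reflect cell numbers or these levels was not tested. The median member of the ATRA+agonist library held 9557 UMIs and 3343 genes, and that of the vehicle library 7841 UMIs and 2912 genes. The median share of hemoglobin beta UMIs in members was 0.0130% against 0.0541%, and the cause of this difference was not tested. Without the limit on these UMIs, 7824 and 9242 cells were kept, of which 636 and 838 met the rule. The shares of kept cells above hold with the limit in place. The libraries shared 43 barcodes, none of them a member in both and 4 a member in 1.

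Most members lay well inside the rule. The median of the 4-gene sum was 31.5 UMIs in the ATRA+agonist library and 26 in the vehicle library, and the sum reached 10 in 92.5% and 85.0% of members. Just inside the threshold, 5 and 9 members had a sum of exactly 3, and just outside it 1 and 4 gate cells had a sum of 2 that exceeded the other sums. A further 16 and 26 gate cells had a sum of 3 or more that tied with another sum. The boundaries toward the other classes were less sharp, since 47.5% and 33.6% of members also carried 3 or more UMIs of Pi16, Sema3c, Cd248 and Dpp4, and 38.1% and 39.3% carried 3 or more of Gdf10, Fst, Igfbp3 and Penk.

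Ccl11 was the gene found most often, in 96.0% of members with ATRA+agonist and 95.2% with vehicle. Cxcl14 was detected in 78.8% and 73.0%, Mme in 71.8% and 59.7%, and Hsd11b1 in 67.8% and 61.5%. All 4 genes were found in 46.8% and 37.2% of members and a single one in 6.53% and 12.1%. In kept cells of an endothelial gate, whose median depths were 3755 and 3834 UMIs, Cxcl14 had a UMI in 0.900% and 1.37%, Mme in 0.450% and 0.471%, Hsd11b1 in 3.60% and 1.80%, and Ccl11 in 0.900% and 1.93%. Hsd11b1 was more frequent in kept cells of an immune gate, at 17.8% and 17.5%, with median depths of 7794 and 8474 UMIs. Cxcl14, Mme and Ccl11 each had a UMI in at most 1.60% of those cells. With each cell thinned to 2000 UMIs, which left out 5 and 8 members, Cxcl14 had a UMI in 69.5% and 64.2% of members. In endothelial gate cells the shares were 0.417% and 1.02% at that depth. Members were chosen for the UMIs of these 4 genes, so the difference describes the choice and is not a finding.

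**Figure D1:**
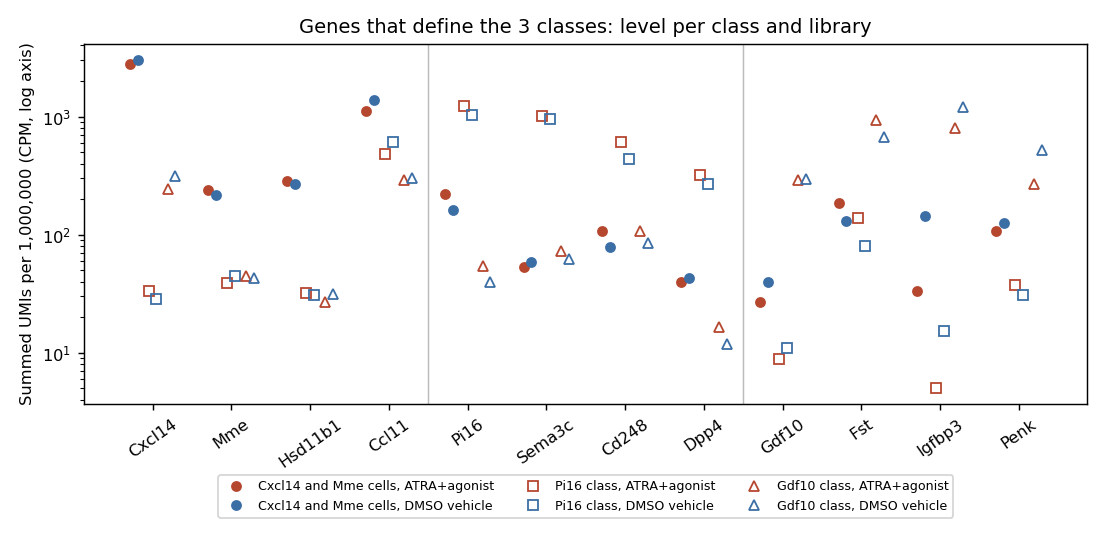
Level of the 12 genes of the rule in summed UMIs per 1000000 UMIs (CPM, log axis), with filled circles for the Cxcl14 and Mme cells, open squares for the Pi16 class and open triangles for the Gdf10 class. Cxcl14 stood at 2792 and 2994 CPM in members and at 33.5 and 28.6 CPM in the Pi16 class, and each block of 4 genes is highest in the class that it defines.

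Levels were compared as CPM, the UMIs of a gene summed over the cells of a class and divided by all UMIs of that class. Because the rule used all 4 genes, each was left out in turn and its level read in cells chosen by the other 3. Chosen without Cxcl14, members still had 2592 CPM of Cxcl14 with ATRA+agonist and 2917 with vehicle, against 346 and 269 in the Pi16 class and 1429 and 1336 in the Gdf10 class. Chosen without Mme, members had 237 and 214 CPM of Mme, and neither other class passed 52.9. Chosen without Hsd11b1, members had 285 and 265 CPM of Hsd11b1, and neither other class passed 42.7. Ccl11 separated members from the Pi16 class least of the 4, at 1017 and 1267 CPM in members chosen without it, 731 and 984 in the Pi16 class and 442 and 644 in the Gdf10 class.

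The members were not uniform in Cxcl14. A group of 133 members with ATRA+agonist (21.2%) and 209 with vehicle (27.0%) had no Cxcl14 UMI, while 448 and 501 had 3 or more. The cells without Cxcl14 were sequenced to nearly the same depth, with medians of 9401 and 7623 UMIs against 9716 and 8009. Smoc2, a matricellular protein of basement membranes, stood at 2046 and 1329 CPM in the cells without Cxcl14 and at 3238 and 2271 CPM in those with 3 or more. Sorl1, a sorting receptor, stood at 18.9 and 23.0 CPM without Cxcl14 and at 71.3 and 74.3 with 3 or more. Apod, a lipid-binding apolipoprotein, ran the other way in both libraries, at 5801 and 8055 CPM without Cxcl14 and 3070 and 4547 with 3 or more. Ccl11 was the only detected gene of the 4 in 27 and 64 members, which held 9211 and 8763 CPM of Apod. Over all members, 27.2% and 23.3% of the Apod UMIs lay in 10 cells per library, with up to 1022 and 2008 UMIs in a single cell. The part of such cells in these Apod levels was not tested.

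**Figure D2:**
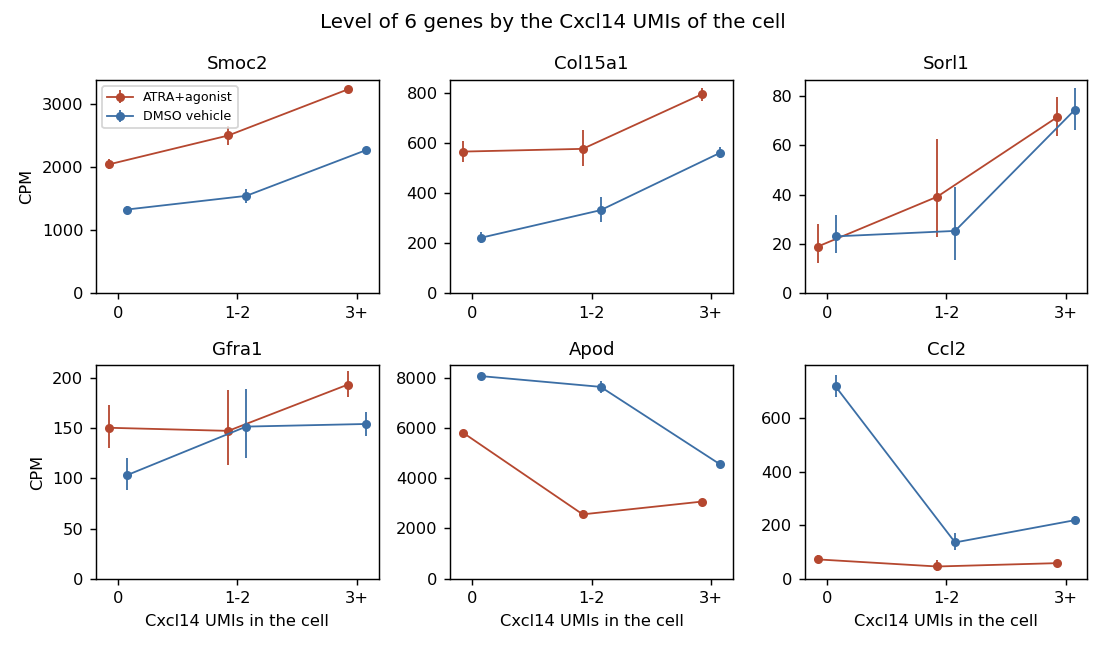
CPM of 6 genes in members with 0, 1 or 2, or at least 3 Cxcl14 UMIs, in each library, with exact Poisson intervals as bars and lines that join the groups of a library. Smoc2, Col15a1 and Sorl1 are highest in the cells with 3 or more Cxcl14 UMIs in both libraries, and Apod is highest in those with none. Ccl2 is high in the vehicle cells without Cxcl14, and a single vehicle member held 553 of the 2171 Ccl2 UMIs of vehicle members.

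Against the Pi16 class, 473 of 10032 genes (4.71%) were at least 2-fold higher in members in both libraries and 229 (2.28%) at least 2-fold lower. Against the Gdf10 class, 178 of 9814 (1.81%) were higher and 147 (1.5%) lower. In each case the genes of the rule were left out and no test was made, since the cells were sorted into classes by their own counts. Over both contrasts, 72 of 9727 genes were higher than in both other classes and 20 were lower.

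Many basement membrane genes were higher in members. Of 18 with enough UMIs, 8 were at least 2-fold higher than in the Pi16 class and 10 than in the Gdf10 class in both libraries, and none was lower in either contrast. Col15a1, a collagen that links basement membranes to the fibrillar matrix, stood at 733 CPM with ATRA+agonist and 455 with vehicle, against 122 and 80.0 in the Pi16 class and 204 and 113 in the Gdf10 class. Smoc2 stood at 2937 and 1967 CPM, against 576 and 430 in the Pi16 class and 829 and 739 in the Gdf10 class. The 2 main chains of collagen IV were also higher, with Col4a1 at 1002 and 849 CPM against 362 to 432 over the other classes and libraries. Lamb1, a laminin chain, stood apart mainly from the Gdf10 class, at 314 and 244 CPM against 49.3 and 34.1.

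Several signaling genes outside the lists were higher than in both classes. Gfra1, a co-receptor for GDNF, stood at 181 and 141 CPM in members and at no more than 35.5 in either other class. Grm8, a metabotropic glutamate receptor, stood at 229 CPM with ATRA+agonist and 96.6 with vehicle, against 31.8 and 19.5 in the Pi16 class and 17.5 and 1.24 in the Gdf10 class. Sorl1 stood at 58.0 and 57.0 CPM and Inpp4b, a phosphoinositide phosphatase, at 41.2 and 65.2, with neither above 9.29 in another class. Inpp4b was found in 8.76% and 11.1% of members, with 55.2% and 37.8% of its UMIs in 10 cells. Kcnb2, a potassium channel, had no UMI in the Pi16 class of either library, so that its level of 24.5 and 31.1 CPM was at least 24.1-fold and at least 21.8-fold higher, with 3 UMIs per library as the limit that a count of 0 allows. Kcnb2 was found in 34 and 39 members, and 10 cells held 58.4% and 65.5% of its UMIs.

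Some of the largest folds rested on few cells. Spp1 (osteopontin) stood at 32.1 and 40.7 CPM in members, but 95.05% and 79.8% of its UMIs lay in 10 cells of each library. Saa1, an acute-phase protein, stood at 21.0 and 39.3 CPM with 65.2% and 68.3% of its UMIs in 10 cells. Blnk, Fetub, Cst6, Thrsp and BE692007 completed the 12 largest folds, at 11.4 to 36.1 CPM in members and at most 4.33 in the other classes. Of these, Thrsp had 84.0% and 57.5% of its UMIs in 10 cells and Cst6 58.9% and 79.2%.

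Of the genes that were lowest in members, Igfbp5, an IGF-binding protein, stood at 295 and 278 CPM in members, 2160 and 2280 in the Pi16 class and 877 and 1036 in the Gdf10 class. Gpc6, a cell-surface glypican, stood at 266 and 258 CPM, against 729 and 730 in the Pi16 class and 1106 and 1493 in the Gdf10 class. Sfrp4, a secreted Wnt antagonist, and Chrdl1, a BMP antagonist, were at 21.9 and 11.99 CPM and at 5.56 and 5.21 CPM in members, below both classes in both libraries. Pdgfd, a growth factor that signals through PDGFR-beta, stood at 15.6 and 8.84 CPM against 50.01 to 71.7 over the other classes. Pi15, Ildr2 and Tspan18 completed the 8 lowest.

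**Figure D3:**
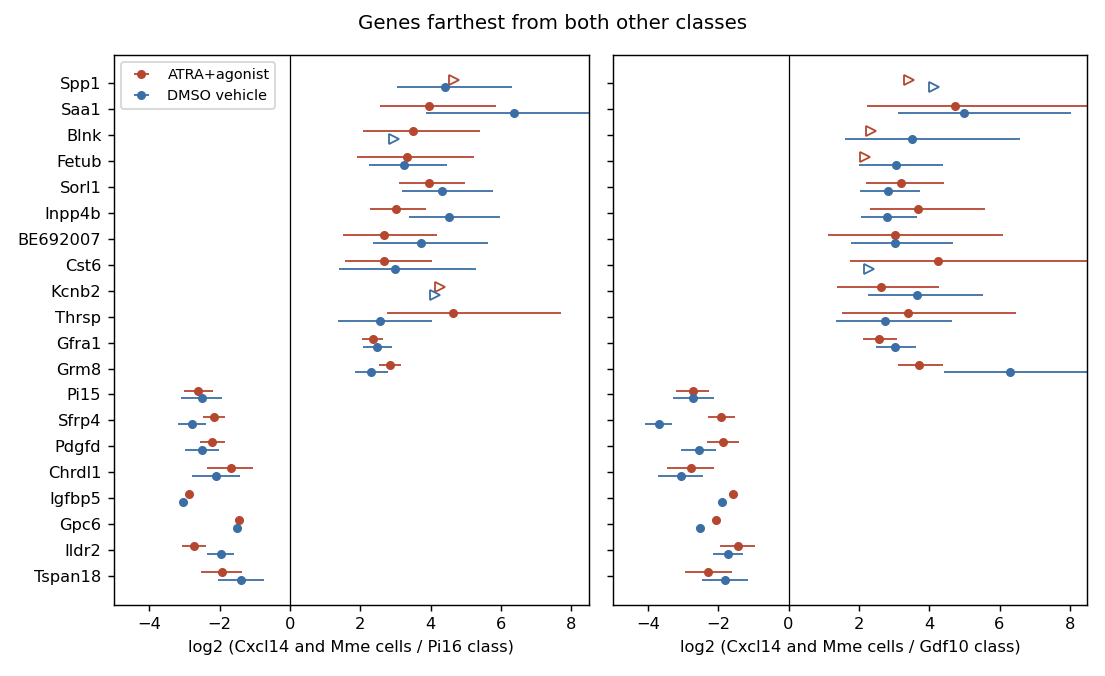
log2 of the level in members over the Pi16 class (left) and over the Gdf10 class (right) for the 12 genes farthest above and the 8 farthest below both classes, per library, with exact intervals that are clipped at the edge of the axis. Open triangles mark the lower limit of the interval where the other class had no UMI, and all 20 genes lie on the same side of 0 in both panels and both libraries.

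H6pd, the partner of Hsd11b1, stood at 52.1 and 62.7 CPM in members, above both the Pi16 class, at 16.2 and 24.3, and the Gdf10 class, at 29.4 and 29.7. Apoe, a lipid carrier, and Lpl, the lipase that releases fatty acids from lipoproteins, were higher in members than in the Pi16 class and close to the Gdf10 class. Apoe stood at 827 and 1017 CPM in members, 98.0 and 64.3 in the Pi16 class and 920 and 1063 in the Gdf10 class. Aldh1a2, which makes retinoic acid, stood at 80.1 and 93.1 CPM in members, 45.0 and 72.4 in the Pi16 class and 7.15 and 8.67 in the Gdf10 class. Cyp26b1, which degrades it, had the reverse order against the Gdf10 class, at 58.3 and 82.9 CPM in members and 72.3 and 230 in the Gdf10 class. In the Pi16 class Cyp26b1 was lower than in members, at 11.2 and 25.7 CPM.

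Between the libraries, 420 of 11375 genes with at least 50 UMIs in members (3.69%) were at least 1.5-fold higher with ATRA+agonist and 643 (5.65%) at least 1.5-fold lower. The interval of the ratio excluded no difference for 348 and 548 of them. The median log2 ratio over all these genes was 0.026. Without the limit on hemoglobin beta UMIs, which added 8 and 64 members, 574 genes were higher and 560 lower, so the balance of the 2 directions depended on that limit. The shares above are the background for the lists below.

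Many genes of a glucocorticoid activation and response list were lower with ATRA+agonist. Of 21 genes of the list, 0 were at least 1.5-fold higher and 11 at least 1.5-fold lower, with a median log2 ratio of -0.64. Zbtb16, a zinc-finger factor induced by glucocorticoids, stood at 169 CPM with ATRA+agonist and 396 with vehicle, a log2 ratio of -1.23 (-1.33 to -1.12). Tsc22d3 (GILZ), an anti-inflammatory mediator, stood at 94.1 and 199 CPM, a log2 ratio of -1.08 (-1.23 to -0.94). Cebpd, an early adipogenic factor, stood at 730 and 1472 CPM, a log2 ratio of -1.01 (-1.06 to -0.96). Fkbp5, a chaperone that restrains the receptor, stood at 129 and 222 CPM, a log2 ratio of -0.78 (-0.91 to -0.66). The largest share of UMIs in 10 cells of a library among these 4 genes was 11.8%, for Fkbp5. Klf15, Mt1, Mt2, Ddit4, Errfi1, Glul and Pdk4 were the others, with log2 ratios from -1.13 to -0.64. Per1, Sgk1, Klf9, Dusp1, Lcn2, Sult1a1 and Nr3c2, which are also in the list, were not among the 11 lower genes.

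The enzymes and the receptor of the same list stayed within 1.5-fold. Hsd11b1, whose UMIs the rule counted, stood at 286 and 266 CPM, a log2 ratio of 0.10 (0.01 to 0.20). H6pd had a log2 ratio of -0.26 (-0.48 to -0.05), in the direction of the list. Nr3c1, the glucocorticoid receptor, stood at 302 and 216 CPM, a log2 ratio of 0.49 (0.39 to 0.59). The lower levels were not limited to members. Zbtb16 had log2 ratios of -0.95 in the Pi16 class and -1.25 in the Gdf10 class, and Cebpd of -0.73 and -0.89. Fkbp5 was farther down in the Gdf10 class, at -1.79, than in members.

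The metallothioneins Mt1 and Mt2, small metal-binding proteins induced by metals and by glucocorticoids, lie side by side on chromosome 8 (Mt2 at chr8:94172664-94173568 and Mt1 at chr8:94179082-94180327, GRCm38, plus strand). Mt1 stood at 1020 CPM with ATRA+agonist and 1936 with vehicle, and Mt2 at 323 and 590. Windows of 250 bases before the starts annotated in RefSeq (GRCm38.p6) were read, and the bases of a window that also lie before the gene's extent in GENCODE are shown, 5′ to 3′ on the strand of the gene. Those of Mt1 and Mt2 are shown because both genes moved together, and that of Tsc22d3 because it was the 1 lower gene with the arm searched here. For Mt1 and Tsc22d3, 7 and 137 bases that lie inside the GENCODE gene were left out. Capitals mark, on either strand, TGCNCNC in Mt1 and Mt2, and AGAACA (1 arm of a glucocorticoid response element) in Tsc22d3. TGCNCNC is looser than the core of a metal response element, TGCRCNC, in which R is A or G. The stretches GGGAGCA (read on the other strand) and TGCTCTC of Mt2 match only the looser form.
Mt1 (chr8:94178839-94179081, plus strand): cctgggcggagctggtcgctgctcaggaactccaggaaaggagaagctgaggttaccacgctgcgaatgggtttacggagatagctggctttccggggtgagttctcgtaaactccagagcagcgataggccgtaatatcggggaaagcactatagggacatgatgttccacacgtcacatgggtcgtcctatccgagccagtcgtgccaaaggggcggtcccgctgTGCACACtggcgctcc
Mt2 (chr8:94172368-94172617, plus strand): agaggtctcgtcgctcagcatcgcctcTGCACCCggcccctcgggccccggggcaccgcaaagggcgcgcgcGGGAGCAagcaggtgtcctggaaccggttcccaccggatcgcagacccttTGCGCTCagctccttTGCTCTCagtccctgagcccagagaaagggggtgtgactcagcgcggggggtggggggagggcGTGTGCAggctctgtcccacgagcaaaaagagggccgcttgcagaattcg
Tsc22d3 (chrX:140600660-140600772, minus strand): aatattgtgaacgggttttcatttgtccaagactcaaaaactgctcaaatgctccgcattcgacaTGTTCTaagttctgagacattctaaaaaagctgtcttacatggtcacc
The bases shown held 1 match of TGCNCNC for Mt1 and 5 for Mt2. Bases after the annotated starts were not read, so these are not counts over whole promoters and do not compare the 2 genes. Of 32851 windows, 44.4% held TGCNCNC, 16.1% held AGAACA and 3 held the full palindromic glucocorticoid response element. Of the 11 lower genes, 9 had an entry, with 12 windows in all. Of these windows 8, from 8 of the genes, held TGCNCNC, and 1 window, of Tsc22d3, held AGAACA. These matches are descriptions of letters and not binding sites.

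**Figure D4:**
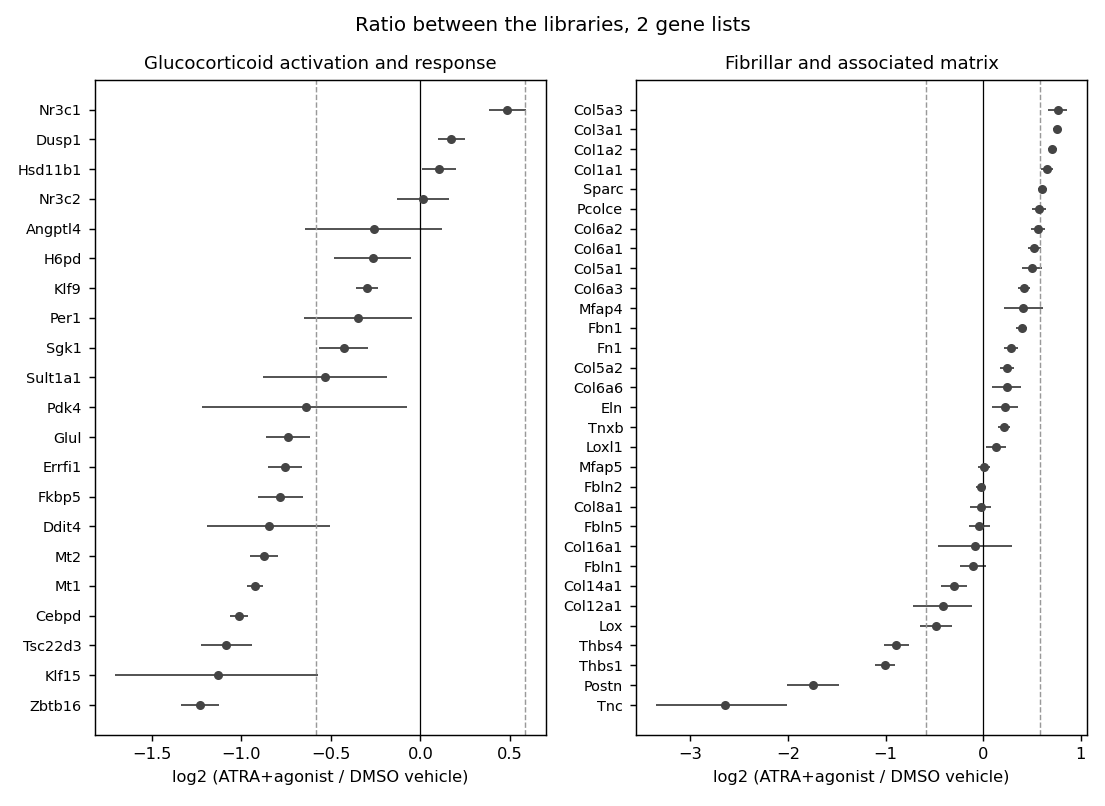
log2 ratio of ATRA+agonist over DMSO vehicle in members for the genes with at least 50 UMIs of the glucocorticoid list (left) and the fibrillar matrix list (right), with exact intervals as bars and dashed lines at 1.5-fold. On the left 11 of 21 genes lie below the lower line and none above the upper one, and on the right the collagens Col1a1, Col1a2, Col3a1 and Col5a3 lie above the upper line while Tnc, Postn, Thbs1 and Thbs4 lie below the lower one.

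Of 23 chemokine and cytokine genes, 1 was at least 1.5-fold higher with ATRA+agonist and 5 were lower, with a median log2 ratio of -0.23. Cxcl14 stood at 2792 and 2994 CPM, a log2 ratio of -0.10, and Ccl11 at 1123 and 1393 CPM, a log2 ratio of -0.31, and the rule counted the UMIs of both. Outside the rule, Cxcl1, which recruits neutrophils, stood at 675 and 756 CPM, a log2 ratio of -0.16, and Cxcl12, the ligand of Cxcr4, at 323 and 370 CPM, a log2 ratio of -0.20. Ccl2, which recruits monocytes, stood at 60.6 CPM with ATRA+agonist and 343 with vehicle, a log2 ratio of -2.50 (-2.66 to -2.34) and the lowest of the genes with at least 200 UMIs. Ccl7, a close relative of Ccl2, stood at 96.3 and 291 CPM, a log2 ratio of -1.59 (-1.73 to -1.46). Ccl2, Ccl7 and Ccl11 lie within one cluster on chromosome 11 (chr11:82035571-82037453, chr11:82045712-82047525 and chr11:82057823-82062955, GRCm38). Because the rule counted the UMIs of Ccl11, its ratio in members cannot be set against those of Ccl2 and Ccl7. Over all cells of the mesenchymal gate, Ccl11 had a log2 ratio of -0.30.

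Few cells carried most of the UMIs of Ccl2. It was detected in 14.6% of members with ATRA+agonist and 24.0% with vehicle, or in 6.58% and 13.1% at 2000 UMIs per cell, and 58.8% and 64.3% of its UMIs lay in 10 cells. Without those cells the log2 ratio of Ccl2 was -2.29. Ccl7 was less concentrated, with 38.8% and 31.98% of its UMIs in 10 cells, and had a log2 ratio of -1.75 without them. In vehicle members without Cxcl14, Ccl2 stood at 720 CPM, and in those that had Ccl11 alone of the 4 genes at 1896 CPM. A single vehicle member held 553 of the 2171 Ccl2 UMIs of vehicle members, and its part in these levels was not tested. Cxcl2 and Cxcl13 had log2 ratios of -1.51 and -1.54, with 86.8% to 96.3% of their UMIs in 10 cells. Il6 was at 56.1 and 85.5 CPM, a log2 ratio of -0.61 that was -0.28 in cells thinned to 2000 UMIs, and Il16 at 48.7 and 25.6, a log2 ratio of 0.93. Ccl2 had a log2 ratio of -0.20 (-0.70 to 0.30) in the Pi16 class, where it stood at 26.0 and 30.01 CPM, and of -1.68 in the Gdf10 class.

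Fibrillar collagens were among the genes higher with ATRA+agonist. Of 31 genes of the fibrillar and associated matrix, 5 were at least 1.5-fold higher and 4 lower, with a median log2 ratio of 0.22. Col3a1 stood at 2079 CPM with ATRA+agonist and 1227 with vehicle, a log2 ratio of 0.76 (0.72 to 0.80). Col1a1 stood at 917 and 582 CPM, a log2 ratio of 0.66, and Col1a2 at 1612 and 987, a log2 ratio of 0.71. Col5a3 (0.76) and Sparc (0.61), a collagen-binding protein, were the others. Col5a1 (0.50) and the collagen VI chains Col6a1, Col6a2 and Col6a3 (0.42 to 0.56) stayed within 1.5-fold, as did Col14a1 (-0.30) and fibronectin, Fn1 (0.28). Col3a1 was detected in 98.6% and 83.1% of members, or in 88.8% and 60.6% with each cell thinned to 2000 UMIs. Tnc, Postn, Thbs1 and Thbs4, matricellular proteins of injury and tendon, had log2 ratios of -2.65, -1.74, -1.004 and -0.89. Thbs1 was found in 43.0% and 56.8% of members, or in 18.5% and 33.4% at equal depth, while Postn had 86.8% and 77.7% of its UMIs in 10 cells and Tnc was found in 10 and 19 cells. Thbs4 was found in 19.3% of members of either library with 38.2% and 55.2% of its UMIs in 10 cells, without which its log2 ratio was -0.42, inside 1.5-fold.

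Of 18 basement membrane genes, 3 were at least 1.5-fold higher and 1 lower, with a median log2 ratio of 0.29. Col15a1 had a log2 ratio of 0.69 (0.62 to 0.76), Col4a3 of 1.17 (0.74 to 1.61) and Col4a5 of 0.74. Egflam, a matrix protein of synapses, was the 1 lower gene at -0.86. Smoc2 stayed just inside 1.5-fold, with a log2 ratio of 0.58, and Col4a1 (0.24), Col4a2 (0.24) and Lamb1 (0.36) well inside it. The collagen differences were shared with the other classes, where Col3a1 had log2 ratios of 0.81 and 1.20 and Col15a1 of 0.61 and 0.86.

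Genes of the retinoid pathway differed little. Of 21 genes, 0 were at least 1.5-fold higher and 1 lower, with a median log2 ratio of -0.11. Tgm2, a transglutaminase and textbook retinoic acid target, stood at 25.3 CPM with ATRA+agonist and 38.2 with vehicle, a log2 ratio of -0.60. Cyp26b1 had a log2 ratio of -0.51 (-0.70 to -0.31) in members, -1.21 in the Pi16 class and -1.67 in the Gdf10 class. Rarb, a receptor gene that retinoic acid is known to induce, stood at 13.2 and 18.8 CPM, a log2 ratio of -0.51 (-0.93 to -0.09). Rara stood at 32.1 and 24.1 CPM, a log2 ratio of 0.41, and Rarg and Rxra at 0.07 and 0.01. Cells were taken at a single time some days after the injections, and no earlier time was measured.

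Adipogenic genes were mixed. Of 24 genes, 2 were at least 1.5-fold higher and 9 lower, with a median log2 ratio of -0.22. Pparg, the master regulator of adipocyte differentiation, stood at 18.8 CPM with ATRA+agonist and 7.73 with vehicle, a log2 ratio of 1.28 (0.79 to 1.79) from 118 and 49 UMIs. It was found in 8.92% and 4.26% of members, with 49.2% and 51.0% of its UMIs in 10 cells. Without those cells its log2 ratio was 1.34. Fabp4, a fatty acid carrier of adipocytes, stood at 33.5 and 106 CPM, a log2 ratio of -1.66, and 56.9% and 73.9% of its UMIs lay in 10 cells, without which the log2 ratio was -0.93. Dgat2, an enzyme of triglyceride synthesis, had a log2 ratio of -1.27 and Cebpb, an early adipogenic factor, of -0.85. Cebpd and Klf15 are in both this list and the glucocorticoid list.

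Among the 10 largest ratios over genes with at least 200 UMIs, Thy1, a surface glycoprotein of fibroblasts, stood at 97.1 CPM with ATRA+agonist and 39.5 with vehicle, a log2 ratio of 1.30 (1.09 to 1.52), and was found in 42.5% and 18.5% of members, or in 16.1% and 5.87% at 2000 UMIs per cell. Grm8 had a log2 ratio of 1.24 and was found in 42.8% and 21.1%, or in 23.0% and 11.6% at equal depth. Rgs6, a regulator of G protein signaling, had the highest log2 ratio, 1.57 (1.32 to 1.82). Dgkb, Col4a3, Nrxn3, Cdc42ep2, Prss12, Nppc and Cspg4 were the others, from 1.40 to 0.95. In cells thinned to 2000 UMIs, Nrxn3 (0.56) and Cspg4 (0.33) were inside 1.5-fold, and Nrxn3 had 57.97% and 71.9% of its UMIs in 10 cells. Igfbp3 (-2.11), a gene of the rule, Ptx3 (-1.75), a pentraxin of the innate response, Tmem176a (-1.72), Gm26885 (-1.62) and Tmem176b (-1.62) were among the lowest. Hbb-bt and Hbb-bs also stood among the lowest, at -1.89 and -1.88. The 4 hemoglobin genes with enough UMIs were all lower, with 241 summed CPM in members against 826, in near the same proportion as in the Pi16 class (242 and 818) and the Gdf10 class (247 and 921).

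All 16 general mesenchymal markers of the list had at least 50 UMIs in members and summed to 48019 and 40899 CPM, while a progenitor state itself was not measured. Of the markers of other cell types, Ptprc stood at 0.159 and 0.158 CPM and Cdh5 at 1.43 and 0.789 CPM, both limited by the gate. Endothelial markers summed to 432 and 410 CPM, of which Ly6c1, a marker shared with stromal cells, made 405 and 374, and glial markers to 321 and 314, of which Pmp22 made 243 and 212. Tenocyte markers summed to 152 CPM with ATRA+agonist and 297 with vehicle, and all 3 with at least 50 UMIs, Thbs4, Comp and Fmod, were at least 1.5-fold lower, with a median log2 ratio of -1.05, while Tnmd and Scx had at most 5 UMIs in a library. Mural markers summed to 79.8 and 52.7 CPM. Immune markers summed to 33.1 and 24.9 CPM, in which Cd74 made 15.4 and 3.95. Fiber markers summed to 83.5 CPM with ATRA+agonist and 51.6 with vehicle, with 3 of 5 genes at least 1.5-fold higher. Of 8 muscle stem cell markers, Myod1 and Chrdl2 had no UMI in members. Cspg4, a mural marker by convention, was among the 10 genes with the largest increase in level. The part of RNA from other cells in these results was not tested.

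For a few genes the ratio in members lay far from the ratios of both other classes. Sulf2, a heparan sulfatase that tunes growth factor signaling, stood at 74.1 CPM with ATRA+agonist and 47.2 with vehicle, a log2 ratio of 0.65 (0.44 to 0.87), against -0.55 in the Pi16 class and -0.40 in the Gdf10 class. Efna5, a guidance ligand, had a log2 ratio of -1.19 in members, from 48 and 110 UMIs, and of 0.38 and 0.49 in the other classes. Comp, a cartilage matrix protein, stood at 16.4 and 49.9 CPM, a log2 ratio of -1.61, against 0.35 and -0.39. It was found in 29 and 47 members, with 77.7% and 74.4% of its UMIs in 10 cells. Piezo1, Map3k20, Nalcn and Sclt1 had log2 ratios from 0.08 to 0.14 in members and from -1.03 to -0.54 in the other classes. These genes were chosen for the difference between classes, which was not tested, and over 4535 genes with enough UMIs the median log2 ratio was 0.029 in members and 0.007 in the other classes.

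**Figure D5:**
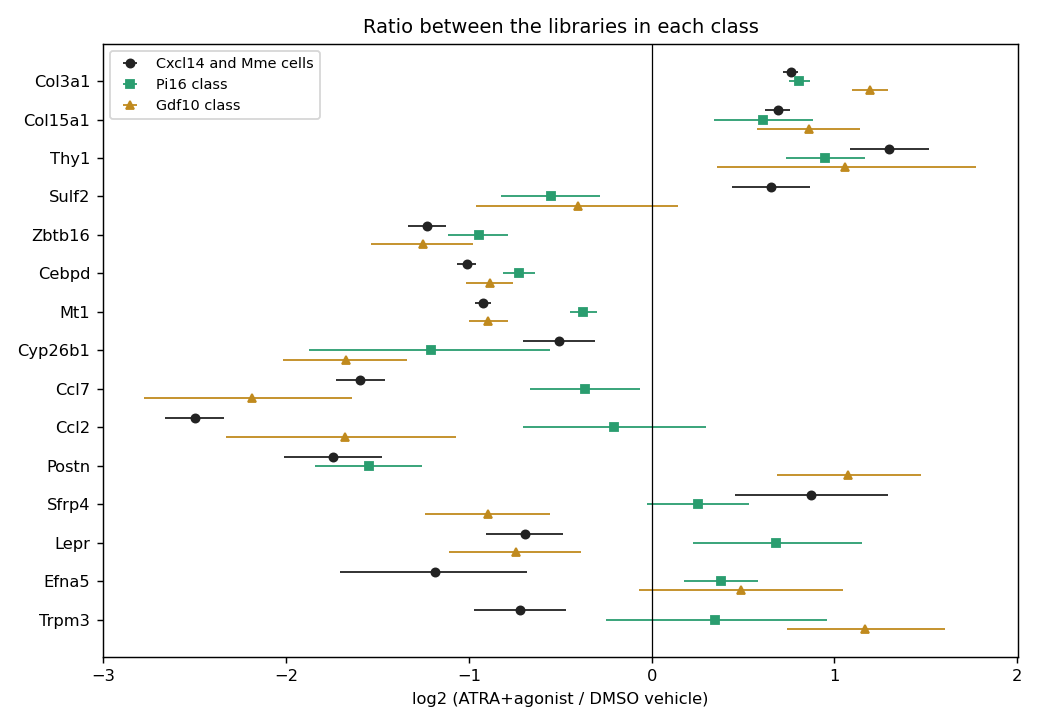
log2 ratio of ATRA+agonist over DMSO vehicle for 15 genes in the Cxcl14 and Mme cells (circles), the Pi16 class (squares) and the Gdf10 class (triangles), with exact intervals as bars. The collagens and Thy1 lie right of 0 and Zbtb16, Cebpd and Mt1 left of 0 in all 3 classes, while Sulf2, Efna5, Lepr and Trpm3 differ in direction between the members and at least 1 class.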

How the data were processed

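Hindlimb muscle cells of 2 libraries, 1 per group and each from 2 pooled mice, were measured by 10x Genomics 3-prime single-cell RNA-Seq. The authors deposited unnormalized UMI counts of each barcode from Cell Ranger (cellranger 7.2.0 in the submitters' processing notes) on mm10 (GRCm38). They hold 65197625 UMIs in 10444 barcodes (ATRA+agonist) and 109343486 in 17394 (DMSO vehicle). The extraction text of the labels describes bulk RNA instead, and the files were followed.

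Barcodes with 300 to 5000 genes, under 20% mitochondrial UMIs and under 0.25% hemoglobin beta UMIs were kept, and doublets were limited by the gate and removed in an alternative. UMIs were summed per class and library, scaled to CPM (UMIs per 1000000) and compared as log2 ratios with exact conditional intervals, which was tested on simulated data. Shares have Clopper-Pearson intervals, ratios of shares normal intervals on the log scale, and single levels exact Poisson intervals. PCR copies were collapsed by UMI. No test between conditions was made. A gene counted as higher or lower past 1.5-fold between libraries (at least 50 UMIs) or past 2-fold in both libraries between classes. Gene positions came from GENCODE M21 (GRCm38). Python 3.11.15, numpy 2.4.6, scipy 1.17.1 and scikit-learn 1.9.0 were used.

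Named genes were the 12 rule genes, the 12 highest and 8 lowest against both classes, the 10 largest ratios in each direction (at least 200 UMIs), list genes, and 5 genes in each direction that differed most from the other classes. Others, such as Smoc2, Apod, Apoe, Lpl, Col4a1, Lamb1, Col5a3, Sparc and Cebpb, and the split by Cxcl14 and the promoter motifs, were chosen after their values were seen. The members and lists were themselves chosen with earlier results of these data known.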

Additional observations from a re-analysis of the deposited data

Results flagged for a closer look

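For 6 genes the ratio of ATRA+agonist over vehicle had opposite signs in the members and in another class, with both intervals on one side of 0. The differences between classes were not tested, and each rests on 1 library per group. The log2 ratio in members minus that in the Pi16 class was 1.20 for Sulf2, -1.56 for Efna5 and -1.37 for Lepr, the leptin receptor. Against the Gdf10 class it was -2.82 for Postn, -1.89 for Trpm3, a calcium-permeable channel, and 1.76 for Sfrp4. In members thinned to 2000 UMIs per cell, the ratio of Trpm3 turned from -0.72 to 0.0044. Lepr stood at 48.5 and 78.4 CPM in members and at 44.3 and 27.6 in the Pi16 class. Sfrp4 stood at 21.9 and 11.99 CPM in members and at 82.7 and 154 in the Gdf10 class. Postn stood at 24.2 and 80.8 CPM in members and at 116 and 55.1 in the Gdf10 class. In members, 86.8% and 77.7% of the UMIs of Postn and 83.3% and 62.7% of those of Efna5 lay in 10 cells per library. For Sfrp4 these shares were 68.8% and 48.7%, and its log2 ratio in members went from 0.87 to 0.15 without those cells. The shares were 12.02% and 14.0% for Sulf2.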

How the results depend on the processing

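Of 119 named genes, 109 had the same sign of the log2 ratio in members under each alternative run for it, and the exceptions, Trpm3 aside, had ratios within 0.22 of 0. Trpm3 turned from -0.72 to 0.0044 with cells thinned to 2000 UMIs, and the cause was not tested. Of 74 named genes past 1.5-fold, 57 stayed past it under each alternative run for them. With thinned cells Trpm3, Apod, Col4a5, Cspg4, Il6, Nrxn3, Per2, Ppara and Sulf2 did not, with the hemoglobin limit lifted Iigp1, Il6, Lepr and Tgm2, among members with at least 1 Cxcl14 UMI Col15a1, Cxcl2, Iigp1, Il6 and Lepr, without any UMI of the 4 excluded genes Sfrp4 and Tgm2, with the mean over cells Apod, Col4a5 and Il6, with median-of-ratios scaling Sparc, and without the 10 cells that held most of a gene's UMIs Sfrp4 and Thbs4. Thinning leaves fewer UMIs and so fewer genes past the minimum: 387 genes were then lower with ATRA+agonist, 177 higher and 119 lower than in the Pi16 class, and 95 higher and 54 lower than in the Gdf10 class. With a minimum of 20 UMIs in place of 50, 742 genes were higher and 1156 lower between libraries, and with 200 UMIs 125 and 209. The share of members within the mesenchymal gate kept its ratio near 1 except without Ccl11 in the sum, where it was 1.07. The median of the glucocorticoid list ranged from -0.77 with thinned cells to -0.46 without any UMI of the 4 excluded genes. Among members with at least 1 Cxcl14 UMI, an alternative chosen after the data were seen, Ccl2 had a log2 ratio of -1.87 and Col15a1 of 0.53. Doublet removal moved Fabp4 from -1.66 to -0.76. No replicate could be left out, and no paired analysis was possible because each group has 1 library.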

Other observations

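Of 30 interferon-response genes, 1 was at least 1.5-fold higher and 4 were lower, with a median log2 ratio of -0.27. Iigp1, an immunity-related GTPase, stood at 1097 CPM with ATRA+agonist and 1699 with vehicle, a log2 ratio of -0.63, and Ifi27l2a stood at 167 and 90.3 CPM, a log2 ratio of 0.89. Of 29 immediate early and heat shock genes, 0 were higher and 4 were lower, among them Myc at 77.6 and 177 CPM (log2 ratio of -1.19) and Nr4a1 at 219 and 355 (-0.70), with a list median of -0.02.

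Of 17 circadian clock genes, Npas2 was at least 1.5-fold higher (0.75) and Per2 lower (-0.89), with a median of -0.10. Of 14 complement genes, 0 were higher and 3 lower, with C4b at 69.3 and 154 CPM (log2 ratio of -1.15). Of 25 fatty acid oxidation genes, 0 were higher and 1 lower, with a median of 0.14. Of 13 myofibroblast genes, 1 was higher and 5 were lower, with a median of -0.41, and Ccn2, a matricellular growth factor, stood at 121 and 215 CPM (log2 ratio of -0.83). Igf1, a trophic factor for muscle, stood at 525 and 521 CPM, a log2 ratio of 0.01 (-0.06 to 0.08).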
